A study of Mus musculus with 6 samples.

Results

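Growth plate chondrocytes of Tgfbr2Prx1KO mutant embryos were compared with growth plate chondrocytes of control embryos across all genes on a whole-genome expression array. The comparison rests on 2 of the 6 arrays of the study, chosen by the growth plate titles, with 1 array for the mutant and 1 array for the control. Of 19506 genes that could be named on the array, 16166 were detected on both growth plate arrays, that is, marked as well above background by the scanner software. The mutant embryos carried Tgfbr2Prx1KO, which by convention denotes a deletion of Tgfbr2, the gene for the TGF-beta type II receptor, in limb mesenchyme through a recombinase driven from the Prx1 promoter. The control embryos were labelled wild type. Both groups were C57BL/6 embryos at stage E14.5, described as littermates, with 2 mutant and 2 control embryos named in the labels. Whether an array held RNA of both embryos of its genotype is not stated there.

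The tissue was the autopod, the distal limb with the future digits. Cells of the growth plate, of the neighbouring interzone where a joint will form, and of the tissue between the digits were cut from frozen sections by laser-capture microdissection. Their RNA was amplified by a commercial procedure for very small samples before it was labelled with 1 dye. Titles and organism name mouse limb, while the free description of 5 samples, both growth plate samples among them, names irradiated human blood; titles and genotype labels were followed.

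Growth plate cartilage lengthens the future bones. Its chondrocytes divide, lay down a matrix of type II, IX and XI collagen and of the proteoglycan aggrecan under the control of SOX9 and its partners SOX5 and SOX6, and later enlarge, switch to type X collagen and signal through Indian hedgehog and parathyroid hormone-related protein. TGF-beta ligands bind the type II receptor, which recruits a type I receptor and sends SMAD proteins to the nucleus, and in the limb this pathway is known for its part in joint formation and in the pace of chondrocyte maturation.

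A level below is the log2 processed signal of a gene's brightest probe minus the 75th percentile of all spots on that array, so that 0 is that percentile, and a fold is the ratio of the mutant to the control signal on this scale. With 1 array per group no difference has a replicate check, and repeat spots of 1 probe on the same array varied with a median SD of 0.099 log2 units on the mutant array and 0.089 on the control array, which measures spot noise only. The growth plate mutant array lay on slide 2 with the interdigital mutant array, and the growth plate control array on slide 1 with the other control arrays and the interzone mutant array, so that slide and genotype cannot be told apart here. Processed signals had a median of 413 on the mutant array and 103 on the control array, the dimmest of the 6. The share of spots detected was 81.8% on the mutant array and 72.3% on the control array, and it lay between 77.3% and 88.3% on the other 4. The lowest detected level was -7.449 on the mutant array and -6.555 on the control array. A large fold that rests on a level near these is uncertain in size. In captured tissue, fewer cells of a type and less RNA per cell cannot be told apart.

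Tgfbr2, the gene named in the genotype, was checked first. Its brightest probe had a level of 1.20 on the growth plate array labelled mutant and -2.42 on the one labelled control. The interzone arrays read 2.22 in the mutant and 2.42 in the control, and the interdigital arrays 1.91 in the mutant and 2.49 in the control. A second probe stood at -1.24 in the mutant growth plate against -2.97 in the control growth plate, and the third at -5.15 in the mutant against -7.17 in the control growth plate, where it was not detected. All 3 probes were thus higher on the array labelled mutant, and the growth plate control array was the lowest of the 6 for the 2 brighter probes. Which exons were removed is not stated in the labels, so these probes may lie outside them and then check nothing; mutant and control stand for the array labels throughout.

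The cell type label was checked with cartilage markers. Col2a1, which encodes the main collagen of cartilage, ranked 49 of 17534 detected genes on the growth plate mutant array, at 5.43, and was the brightest of 16589 on the growth plate control array, at 7.96. On the mutant arrays of the other tissues Col2a1 read 5.74 in interzone and 5.38 between the digits, and the growth plate mutant level lay between these. Of 24 cartilage collagen and matrix genes, 6 were higher on the growth plate mutant array than on both other mutant arrays, against 29.7% of all genes. On the growth plate control array 20 of the 24 were higher than on both other control arrays, against 44.5% of all genes. The array labelled growth plate mutant thus did not stand above the other mutant tissues in these markers, while the control array carried the markers of its label above the other control tissues.

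Sex-linked genes split the arrays by genotype. Xist, the RNA that silences an X chromosome in female cells, had a level of -5.78 on the growth plate mutant array and 3.97 on the growth plate control array. The Y-linked gene Uty was at -0.99 on the mutant array and was not detected on the control array. The same division held in interzone and between the digits, with Xist at -5.56 and -6.67 on the mutant arrays and 3.02 and 4.14 on the control arrays. Genotype and the sex of the embryos sampled thus cannot be told apart in this series.

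With 16166 genes on both growth plate arrays, the mutant was higher by 2-fold or more for 3603 (22.3%) and lower by 2-fold or more for 5192 (32.1%), and 7371 were within 2-fold. The median difference of all genes was -0.44 on the log2 scale and the middle 50% of genes lay between -1.26 and 0.77, so list counts below are to be read against these 2 shares, and list medians against -0.44. The split depended on the scaling. Higher genes made up 41.0% of all genes past 2-fold in the main setting, against 54.4% with the percentile over commonly detected probes, 57.1% when the median of all genes was set to 0, and 16.8% in the deposited table, which divides each array by its own median. A further 1145 genes (6.47% of the 17706 detected on at least 1 of the 2 arrays) were detected on the mutant array alone, and 395 (2.23%) on the control array alone.

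**Figure D1:**
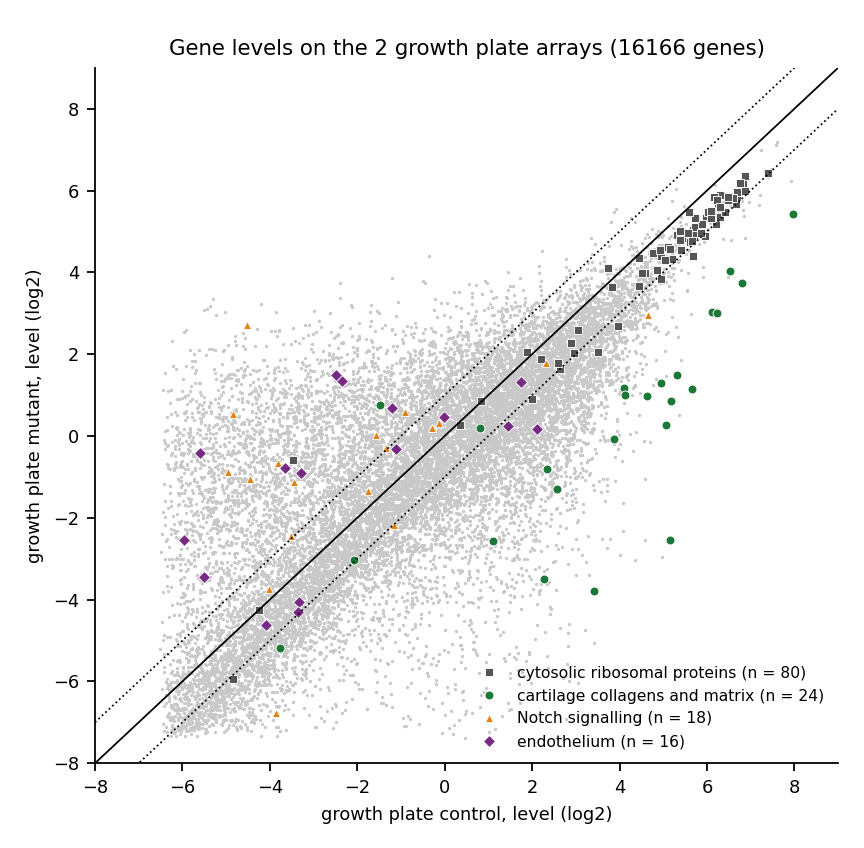
Level of each of 16166 genes on the growth plate mutant array (vertical axis, log2) against the growth plate control array (horizontal axis, log2), with genes of 4 lists in colour. The solid line marks equal levels and the dotted lines a 2-fold difference; cartilage genes lie to the lower right at high control levels, while a band of genes that are dim on the control array spreads upward to higher levels on the mutant array.

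The growth plate control array, rather than the mutant array, was most often the one apart. Among the 3595 genes at least 2-fold higher in the mutant with a value on all 6 arrays, the growth plate mutant array was the highest of the 6 for 33.9%, and the growth plate control array was the lowest for 70.2%. Among the 5185 genes at least 2-fold lower, the mutant array was the lowest of the 6 for 44.5% and the control array the highest for 73.6%. Over all genes the mutant array was the highest of the 6 for 11.2% and the lowest for 23.2%, and the control array the highest for 35.6% and the lowest for 21.1%. The mutant level lay within the range of the other 4 arrays for 56.3% of the higher and 49.2% of the lower genes.

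**Figure D2:**
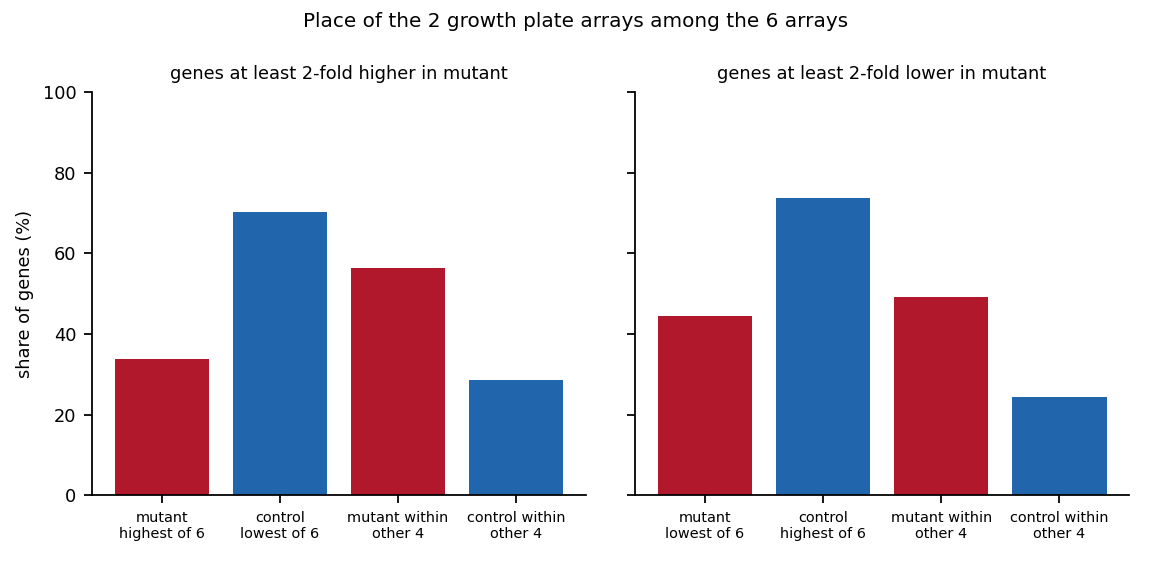
Share of genes (%) for which a growth plate array had the extreme level of the 6 arrays in the direction of the difference, and for which its level lay within the range of the other 4 arrays, for genes at least 2-fold higher (left) and lower (right) in the mutant. Mutant bars are red and control bars blue; in both panels the control array is at the extreme for over 70% of genes.

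The same was seen in the likeness of whole arrays. Across 15589 genes detected on all 6 arrays, the growth plate mutant array correlated with the interdigital mutant array at r = 0.89 and with the growth plate control array at r = 0.72, as a description across genes, which are not independent. Of these genes, 27.1% were 2-fold apart between growth plate mutant and interdigital mutant, and 53.8% between growth plate mutant and growth plate control. Both of the first pair lay on slide 2. The growth plate control array correlated with every other array at r between 0.71 and 0.75. Its levels across these genes also had the widest spread, with an SD of 2.87, against 2.31 to 2.63 on the other arrays.

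Different probes of a gene often went different ways. Of 1364 higher genes with a second probe detected on both arrays, 741 (54.3%) had all probes in 1 direction, and of 1760 lower genes 914 (51.9%) did. Genes named below had all their measured probes in 1 direction unless stated otherwise. Many of them had only 1 probe detected on both arrays, among them Matn1, Matn3, Foxa3, Tgfbi, Bmp2 and Hes1. For such genes no agreement between probes could be checked. List counts rest on the brightest probe of each gene. Of 151 list members past 2-fold with 2 or more probes on both arrays, 94 had all probes in 1 direction.

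The cartilage collagens were lower without exception. Of 7 chain genes, 7 were at least 2-fold lower in the mutant and 0 higher, where 32.1% of all genes were lower, and their median difference was -3.09. Col2a1 had levels of 5.43 on the mutant array and 7.96 on the control array, 5.77-fold lower. Col9a1, a chain of type IX collagen, which coats the type II fibril, had 1.16 on the mutant array and 5.65 on the control array, 22.5-fold lower. Col9a2 stood at 3.03 in mutant growth plate and 6.12 in control growth plate. With Col9a3 at 3.02 in mutant and 6.22 in control growth plate, all 3 type IX chains on the mutant array lay below each of their growth plate control levels.

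Type XI collagen, which sets the width of the fibril, followed the same order. Col11a1 had levels of 0.87 on the mutant array and 5.18 on the control array (19.9-fold lower), and Col11a2 had 1.18 on the mutant array and 4.10 on the control array (7.55-fold lower). Col27a1, a fibrillar collagen of cartilage, was at 4.03 in mutant and 6.52 in control growth plate. The control array was the highest of the 6 for each of the 7 collagen genes. For 2 of the 7 the growth plate mutant array was also the lowest.

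Of 17 cartilage proteoglycans and other matrix proteins detected on both arrays, 14 were at least 2-fold lower, 1 was higher and 2 were within 2-fold, with a median of -3.65. Acan, which encodes the core protein of aggrecan, had levels of 1.501 on the mutant array and 5.31 on the control array, 13.97-fold lower. Hapln1, the link protein that ties aggrecan to hyaluronan, was at -0.073 on the mutant array and 3.87 on the control array, 15.4-fold lower. Matn1, encoding matrilin-1, an adaptor between collagen and proteoglycan, had -2.53 on the mutant array and 5.16 on the control array, 207-fold lower. Matn1 thus lay below the 75th percentile on the mutant array and far above it on the control array.

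Matn3 had levels of -3.79 on the mutant array and 3.41 on the control array, 147-fold lower. Matn4 stood at 1.30 in mutant against 4.94 in control growth plate. Comp, the cartilage oligomeric matrix protein gene, read 3.75 on the mutant array and 6.80 on the control array, where only Col2a1 was brighter among the 24 genes. Cnmd, the gene of chondromodulin, a cartilage protein that holds back vessels, had 0.28 on the mutant array and 5.07 on the control array, 27.8-fold lower. Each of these genes was highest of the 6 arrays on the growth plate control array, as the plot of cartilage genes shows.

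Epyc, the epiphycan gene, had levels of -3.50 on the mutant array and 2.27 on the control array, 54.6-fold lower. Snorc, a small membrane proteoglycan gene of cartilage, was 8.90-fold lower, and Mia, a secreted cartilage protein gene, 12.6-fold lower with 3 probes. Cytl1, a cytokine-like gene of chondrocytes, was 8.77-fold lower, and it was one of the members for which the interzone control array, at 4.51, lay above the growth plate control array, at 4.12. The higher member was Fmod, the fibromodulin gene, with levels of 0.77 on the mutant array and -1.49 on the control array, 4.78-fold higher. Hapln3 and Otor were within 2-fold, and the probes of Prelp disagreed, at -3.88 and 1.90 on the log2 scale.

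**Figure D3:**
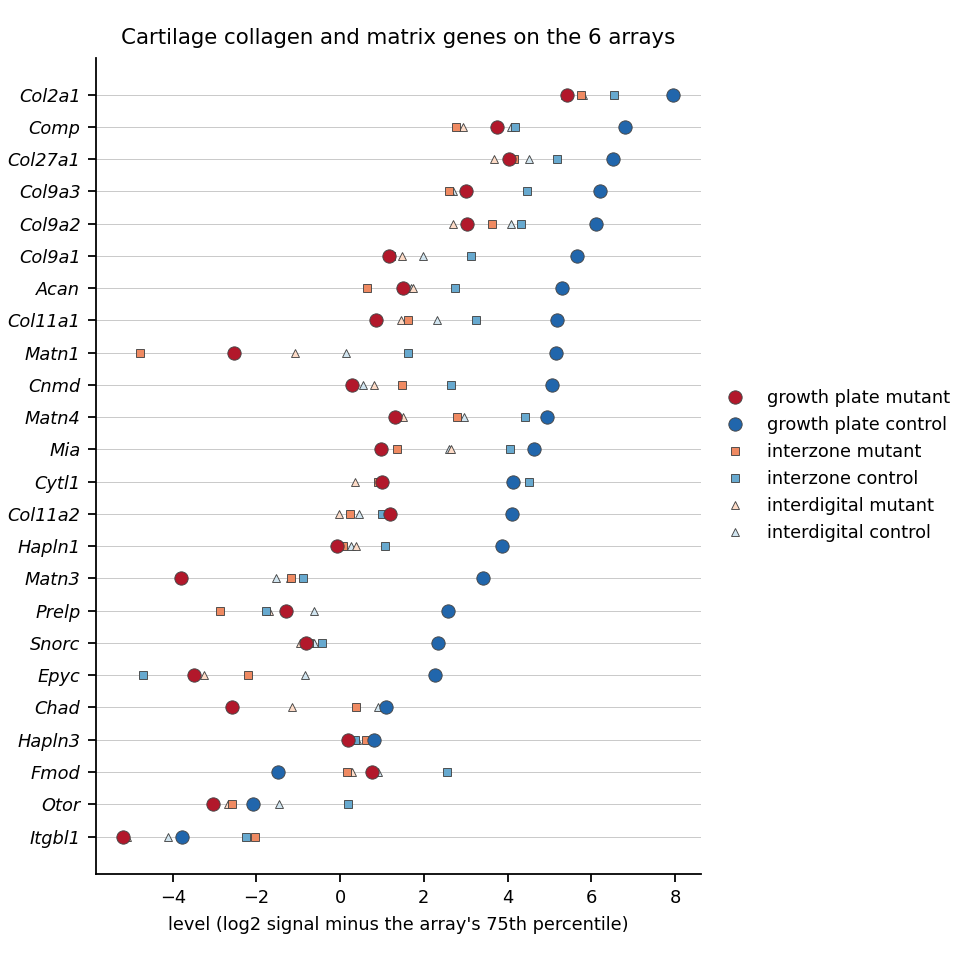
Level (log2 signal minus the array's 75th percentile) of the 24 cartilage collagen and matrix genes detected on both growth plate arrays, on each of the 6 arrays, sorted by the control growth plate level. Red circles mark growth plate mutant and blue circles growth plate control. The control circles lie right of all other symbols for 20 genes. Except for Col11a2, the mutant circles lie among or left of the symbols of the other tissues.

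The 24 genes were set against the tissue between the digits, which is not cartilage. Its arrays still carried cartilage signal, so a level near theirs does not mean that cartilage RNA was absent. Col2a1 ranked 23 of 18234 detected genes on the interdigital control array, at 5.81, and 57 of 18064 on the interdigital mutant array. The growth plate mutant array differed from the interdigital mutant array by a median of 0.33 for the collagens and -0.25 for the other matrix genes, on the log2 scale. In the control embryos the same medians were 2.87 and 2.96. Over all genes these medians were -0.015 between the mutant arrays and 0.15 between the control arrays.

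The upstream sequences of the matrix genes with the largest differences are shown, since they are where the regulators described next could bind. They are the 250 bases before the gene start from RefSeq (GRCm38.p6) for Matn1 (chr4:130944135-130944384, plus strand), Matn3 (chr12:8947679-8947928, plus strand) and the start of Epyc at chr10:97646853-97647102 (plus strand), with the SOX-type hexamers ACAAAG and ACAATG and their reverse complements CTTTGT and CATTGT in capitals.
Matn1: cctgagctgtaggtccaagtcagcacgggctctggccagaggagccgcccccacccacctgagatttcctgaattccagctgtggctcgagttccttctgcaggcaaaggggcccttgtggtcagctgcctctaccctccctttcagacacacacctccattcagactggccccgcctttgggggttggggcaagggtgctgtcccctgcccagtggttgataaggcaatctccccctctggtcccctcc
Matn3: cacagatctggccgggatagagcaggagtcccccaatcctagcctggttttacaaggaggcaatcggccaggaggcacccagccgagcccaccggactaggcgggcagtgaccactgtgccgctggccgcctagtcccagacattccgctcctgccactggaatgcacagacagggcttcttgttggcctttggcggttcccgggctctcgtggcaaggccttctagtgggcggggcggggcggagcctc
Epyc: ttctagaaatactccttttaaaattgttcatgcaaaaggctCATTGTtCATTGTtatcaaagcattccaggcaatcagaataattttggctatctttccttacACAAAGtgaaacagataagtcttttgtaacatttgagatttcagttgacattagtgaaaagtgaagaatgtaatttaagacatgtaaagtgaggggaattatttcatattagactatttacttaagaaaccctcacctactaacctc
The Epyc window held 3 matches and its other listed start 1, while the Matn1 and Matn3 windows held 0. Among the 25 listed upstream windows of 22 cartilage collagen and matrix genes, 2 (8%) held a match, both of Epyc, against 25.2% of all 32851 windows in the table. These 22 are not the same set as the cartilage genes described above. No window was listed for Col2a1, Col9a3, Comp or Snorc, while Ucma and Susd5, which were not among those genes, were included. A match is a description of these letters, and its absence says nothing about binding elsewhere.

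Regulators of the chondrocyte were mostly lower. Of 17 detected on both arrays, 11 were at least 2-fold lower, 1 was higher and 5 were within 2-fold (median -2.12). Sox9, the gene of the master regulator of cartilage, had levels of -0.36 on the mutant array and 3.11 on the control array, 11.1-fold lower with 3 probes. Sox5, its partner, was at -5.14 on the mutant array and -0.43 on the control array, 26.3-fold lower. Sox6, the other partner, could not be placed: its brightest probe was within 2-fold, and another was 4.61 log2 units higher in the mutant.

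Further regulators were lower too. Trps1, a zinc-finger gene of the growth plate, had levels of 0.68 on the mutant array and 3.38 on the control array, and Zbtb20 -2.07 on the mutant array and 1.20 on the control array. Wwp2, which hosts the microRNA miR-140 in an intron, was at 3.90 on the mutant array and 6.48 on the control array, 5.99-fold lower. Foxa2 and Foxa3, forkhead genes of hypertrophic differentiation, were 9.29-fold lower and 545-fold lower. Foxa3 stood at -6.04 on the mutant array, near the lowest level detected there, and at 3.05 on the control array. Pitx1, a hindlimb homeobox gene, was not detected on the mutant array and had a level of 0.50 on the control array, at least 248-fold lower. Foxc1 was likewise detected on the control array alone, and Barx1, a homeobox gene, on the mutant array alone (at least 28.7-fold higher). Runx3, a partner of Runx2 in maturation, was the higher member, 2.08-fold higher, and turned to the other side of 0 in the deposited table.

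Of 12 prehypertrophic and hypertrophic genes, 9 were lower, 2 were higher and 1 was within 2-fold (median -2.97). Ihh, the Indian hedgehog gene of prehypertrophic cells, had levels of -1.21 on the mutant array and 3.40 on the control array, 24.4-fold lower. Pth1r, the receptor for parathyroid hormone-related protein, was at 2.92 on the mutant array and 5.19 on the control array, 4.84-fold lower. Col10a1, the collagen of hypertrophic cartilage, was at -1.02 on the mutant array and 2.50 on the control array, 11.5-fold lower. On each of these 3 genes the other 4 arrays lay well below the growth plate control array, and Ihh, for instance, reached at most -0.27 there.

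Further members of the same list are known from matrix mineralisation. Phospho1, a phosphatase gene of mineralising cartilage, was 12.3-fold lower, Alpl, which encodes alkaline phosphatase, 12.5-fold lower, and Sp7, the osterix gene, 9.43-fold lower. Panx3, a channel gene of prehypertrophic cells, had levels of -0.12 on the mutant array and 4.56 on the control array. Spp1, the osteopontin gene, was not detected on the mutant array and read 1.43 on the control array (at least 471-fold lower), and the collagenase gene Mmp13 was detected on the control array alone (at least 5.02-fold lower). Ibsp, the bone sialoprotein gene, was detected on neither array. Dlx5, a homeobox gene of skeletal maturation, was 2.86-fold higher. Vegfa, a vessel growth factor, was higher at its brightest probe, -0.58 in mutant against -5.29 in control growth plate, while another probe was 0.62 log2 units lower.

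Genes that build the matrix were lower in part. Of 28 genes for chondroitin and heparan sulfate synthesis and sulfate supply, 13 were lower, 4 higher and 11 within 2-fold (median -0.92). Ugdh, which makes the UDP-glucuronate used in all these chains, had levels of 2.54 on the mutant array and 5.10 on the control array, 5.89-fold lower. Chsy1 and Chpf, which polymerise chondroitin, were 4.36-fold lower and 9.99-fold lower. Papss2, which makes the sulfate donor in cartilage, was at -2.96 on the mutant array and 0.13 on the control array, and Slc35d1, a nucleotide sugar carrier, at 1.29 on the mutant array and 3.59 on the control array. Slc26a2, the sulfate transporter of chondrocytes, went the other way, with -0.59 on the mutant array and -5.51 on the control array (30.4-fold higher), where the growth plate mutant array was the highest of the 6.

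Of 31 genes that modify, fold and cross-link collagen, 19 were lower, 4 higher and 8 within 2-fold (median -1.57). The prolyl hydroxylase genes P4ha1 and P4hb were 4.44-fold lower and 2.53-fold lower. Serpinh1, the collagen chaperone HSP47, had levels of 2.33 on the mutant array and 4.13 on the control array, and Fkbp10, another collagen chaperone, 2.01 on the mutant array and 4.50 on the control array. Plod2, a lysyl hydroxylase gene, was 7.10-fold lower. P4ha3 was detected on the control array alone, at 1.79 (at least 559-fold lower). Higher members included the lysyl oxidase genes Lox (3.67-fold higher) and Loxl1 (25.8-fold higher), which cross-link fibrils outside the cell, and Adamts2 (8.12-fold higher), which trims the ends of fibrillar procollagen. Other members that act outside the cell were lower, such as Loxl4 (4.43-fold lower) and the procollagen processing enhancer Pcolce2 (68.6-fold lower).

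Chaperones and the unfolded protein response differed less. Of 23 genes, 7 were lower, 2 higher and 14 within 2-fold (median -0.51). Hspa5, the BiP chaperone, read 4.47 on the mutant array and 5.23 on the control array. The stress regulators Atf4, Ddit3 and Atf6 were 4.49-fold lower, 3.55-fold lower and 28.5-fold lower. Dnajb9 and Herpud1, which act in clearing misfolded proteins, were detected on the mutant array alone, at least 66.8-fold higher and at least 74.5-fold higher.

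The small leucine-rich proteoglycans, which bind collagen fibrils in cartilage and tendon, had 8 of 12 lower and 1 higher (median -2.43). Omd, osteomodulin, had levels of -1.65 on the mutant array and 4.09 on the control array, and Kera, keratocan, -5.91 on the mutant array and 1.503 on the control array. Lum, lumican, was 7.46-fold lower. Dcn, decorin, stayed within 2-fold at 5.75 on the mutant array and 5.20 on the control array. Collagens of perichondrium, vessels and other matrix were split, with 7 of 20 lower and 6 higher (median -0.60). Col1a1, the chain of bone and skin collagen, was within 2-fold at 5.15 on the mutant array and 5.72 on the control array, and the basement membrane genes Col4a1 and Col4a2 were 5.91-fold higher and 2.10-fold higher; the sign of Col4a2 turned in the deposited table.

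Receptors for matrix were lower for 10 of 23 genes and higher for 5 (median -0.75). Itga10, the collagen II receptor of chondrocytes, had levels of 0.094 on the mutant array and 3.33 on the control array, 9.41-fold lower. Itga11, another collagen-binding integrin, was at -6.93 on the mutant array and -0.79 on the control array, 70.8-fold lower. Gpc4, a heparan sulfate proteoglycan of the cell surface, was 8.63-fold lower. Ddr2, a collagen-activated kinase, was on the other side, at 1.70 on the mutant array and -4.07 on the control array, 54.5-fold higher, and the growth plate control array was the lowest of the 6 for it.

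Matrix proteases and inhibitors were lower for 10 of 24 genes and higher for 7 (median -0.67). Adamts5, an aggrecanase, was 22.5-fold lower, and Ctsk, the protease of bone resorption, 29.6-fold lower. Mmp11 and Adamts1 were 23.9-fold higher and 19.96-fold higher. Timp3, an inhibitor stored in the matrix, had levels of 1.77 on the mutant array and -3.24 on the control array. On the other 4 arrays Timp3 lay between 2.05 and 3.36, close to the mutant value and far above the control value.

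**Figure D4:**
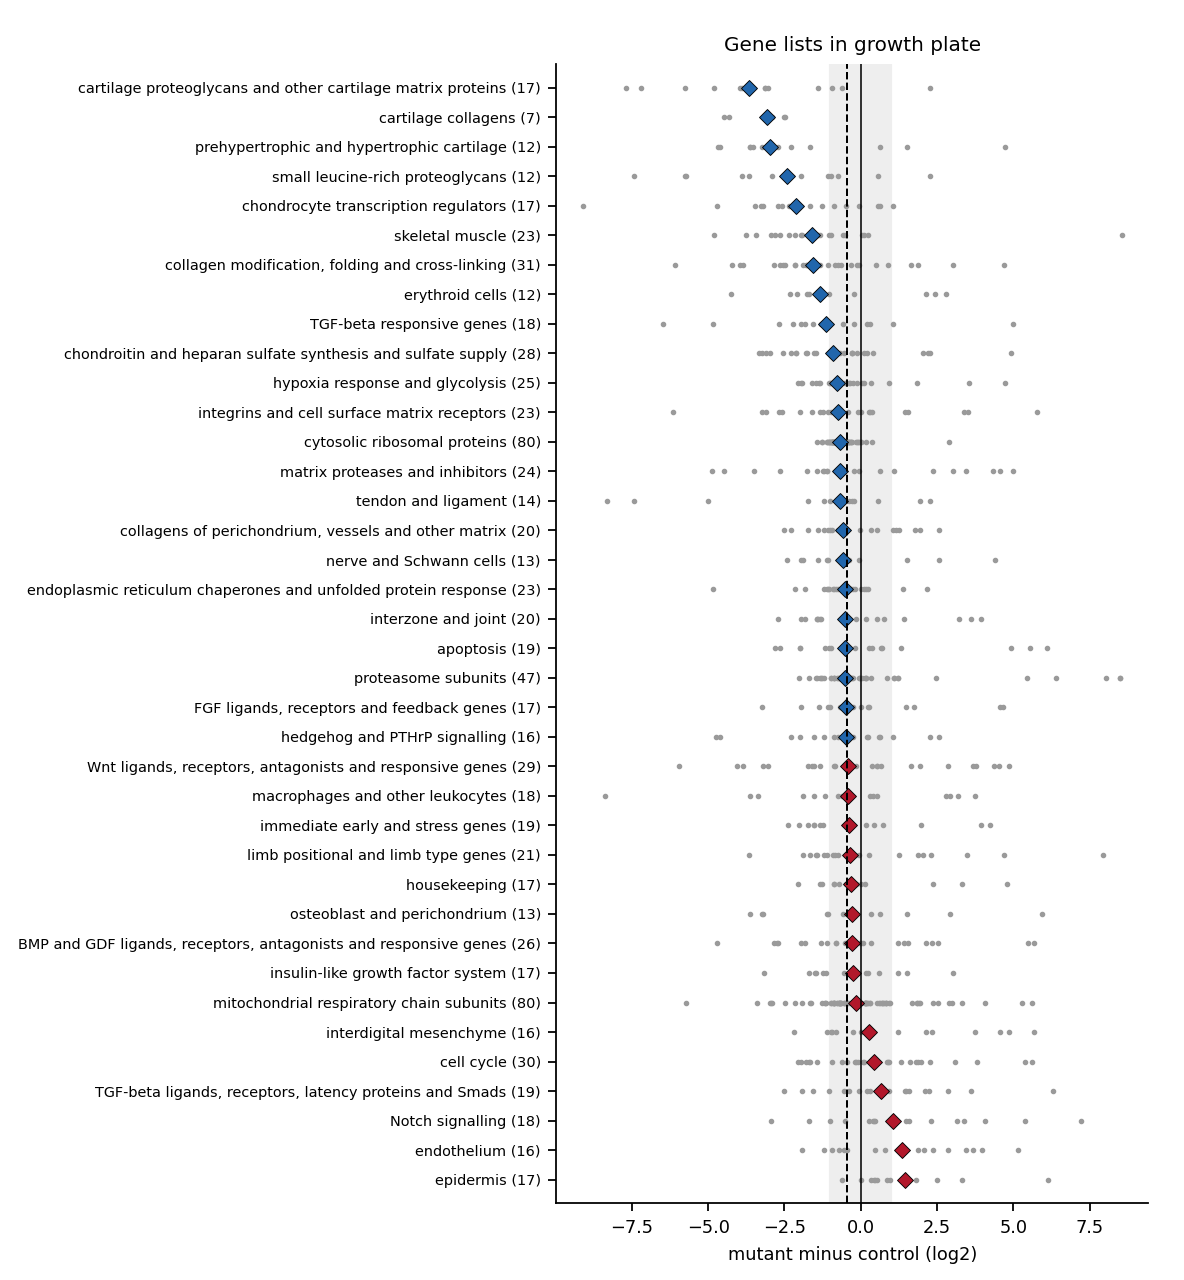
Mutant minus control difference (log2, horizontal axis) of each list member detected on both growth plate arrays (grey dots) and the list median (diamond), with the number of members in brackets. The dashed line is the median of all genes at -0.44, the grey band marks differences within 2-fold, diamonds are red above and blue below the dashed line; the cartilage lists lie furthest left and epidermis, endothelium and Notch furthest right.

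Components of the TGF-beta pathway and its responsive genes lay on opposite sides of the median of all genes. Of 19 components, 8 were higher, 4 lower and 7 within 2-fold (median 0.68). That median was -0.45 in the deposited table, against -1.56 for all genes there. The ligand gene Tgfb3 had levels of 0.50 on the mutant array and -1.08 on the control array, 2.98-fold higher, and Tgfb2 was detected on the mutant array alone. The type I receptor gene Tgfbr1 read 0.76 on the mutant array and 0.81 on the control array at its brightest probe. Another probe of Tgfbr1 was 1.92 log2 units lower in the mutant. The co-receptor gene Tgfbr3 was 2.79-fold higher. Acvrl1, a type I receptor of vessels, was 78.5-fold higher, while Eng, its endothelial co-receptor, was 3.82-fold lower.

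Inside the cell, the probe of Smad2, which carries the TGF-beta signal, read low on both arrays, at -3.04 on the mutant array and -5.88 on the control array. The same probe was not detected on either interzone array or the interdigital mutant array, and read -6.82 on the interdigital control array. Zfyve9, the anchor that presents SMAD2 and SMAD3 to the receptor, was 4.67-fold higher. Probes of the common partner Smad4 disagreed, at -2.52 and 0.66. Of 18 responsive genes, 12 were lower, 2 higher and 4 within 2-fold (median -1.13). Only 2 of the 6 members past 2-fold with 2 or more probes had all probes in 1 direction. Postn, Tagln, Bgn and Itgav were counted as lower by their brightest probe, while another probe of each was higher in the mutant. Ccn2, the connective tissue growth factor gene, had levels of 0.50 on the mutant array and 5.35 on the control array, 28.8-fold lower. Tgfbi, a secreted adhesion protein gene named for its induction by TGF-beta, was at -2.74 on the mutant array and 3.72 on the control array, 88.4-fold lower.

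Fn1, fibronectin, was 4.63-fold lower, and Pmepa1, a feedback inhibitor, 3.55-fold lower. Tgif1, a repressor of SMAD signalling, was detected on the mutant array alone, at least 381-fold higher. The control array was the highest of the 6 for 7 of the 18, a share near the 35.6% of all genes. The growth plate mutant array was the lowest of the 6 for 8 of the 18, where 23.2% of all genes were. In the other tissues the medians of the responsive list were -0.29 in interzone and -0.66 between the digits, where no difference between tissues was tested.

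For the BMP, hedgehog, FGF, Wnt and insulin-like growth factor lists, the shares of higher and lower genes lay within 10 percentage points of the 22.3% and 32.1% of all genes, so the single genes are given as values only. BMP and GDF genes had 8 of 26 higher, 8 lower and 10 within 2-fold (median -0.28, with either sign among the settings). Bmp2 had levels of 0.46 on the mutant array and -5.23 on the control array, 51.6-fold higher, and Bmp4 3.05 on the mutant array and 0.71 on the control array, 5.04-fold higher. Bmpr1a, a type I receptor of chondrocytes, was 44.3-fold higher, and Smad1, which carries the signal, 5.78-fold higher. The antagonists Nog and Chrd were 2.47-fold lower and 3.52-fold lower, and Fst, follistatin, was detected on the mutant array alone at 2.18 (at least 427-fold higher). Id1, a direct BMP target, stayed within 2-fold at 0.52 on the mutant array and 1.02 on the control array.

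Of 16 hedgehog and PTHrP genes, 6 were lower, 3 higher and 7 within 2-fold (median -0.49, with either sign among the settings). Beside Ihh and Pth1r, Kif7, a ciliary regulator of GLI proteins, was 26.5-fold lower. Gli1, a target of the pathway, was within 2-fold at 0.81 on the mutant array and 1.55 on the control array. Gli2, the main activator of the family, was 4.78-fold higher, and Gli3, its main repressor, 3.94-fold lower.

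FGF genes were lower for 5 of 17 and higher for 4 (median -0.49). Fgfr3, the receptor that slows growth plate chondrocytes, had levels of 1.34 on the mutant array and 2.41 on the control array, 2.10-fold lower, and Fgfrl1, a receptor relative of cartilage, 0.16 on the mutant array and 3.41 on the control array, 9.48-fold lower. The feedback genes Spry2 and Etv5 were 23.7-fold higher and 25.6-fold higher, with the growth plate control array below all other arrays for both. The brightest probe of Fgfr1 was within 2-fold, and its probes disagreed in sign.

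Wnt genes were lower for 9 of 29 and higher for 8 (median -0.43, with either sign among the settings). Frzb, a secreted Wnt antagonist of cartilage, had levels of -0.90 on the mutant array and 2.97 on the control array, 14.7-fold lower, and Fzd9, a receptor, -3.13 on the mutant array and 2.82 on the control array, 61.8-fold lower. The ligand gene Wnt5a was 16.7-fold lower. Dkk1, an antagonist from limb mesenchyme, was at 2.08 on the mutant array and -2.79 on the control array, 29.1-fold higher, and the target Axin2 was detected on the mutant array alone (at least 39.5-fold higher). Lef1, a nuclear partner of beta-catenin, was 3.87-fold higher. The brightest probe of Ctnnb1, beta-catenin itself, read 4.64 on the mutant array and 4.26 on the control array. Another probe of Ctnnb1 was 4.21 log2 units higher in the mutant.

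The insulin-like growth factor genes held 6 lower and 3 higher of 17 (median -0.26, with either sign among the settings). Igf2, a fetal growth factor gene, had levels of 5.72 on the mutant array and 6.96 on the control array, 2.36-fold lower. Its imprinted neighbour H19 had 5.38 on the mutant array and 6.86 on the control array, 2.78-fold lower. Igf2r, which clears IGF2, was 9.003-fold lower. Pappa, which frees IGF from its binding proteins, was 8.07-fold higher.

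Notch genes had another balance, with 10 of 18 higher, 2 lower and 6 within 2-fold (median 1.05). That median was -0.084 in the deposited table, against -1.56 for all genes there. Among genes at or above the median level on both arrays it was -0.036, against -0.55 for all such genes. Each of the 10 higher members lay below the median level on the control array. This filter thus left all of them out and cannot check their differences. Jag1, a ligand, had levels of 0.53 on the mutant array and -4.85 on the control array, 41.7-fold higher. Hes1, a direct Notch target, was at 2.71 on the mutant array and -4.52 on the control array, 150.0-fold higher. The glycosyltransferase genes Lfng and Mfng, which tune receptor binding, were 16.7-fold higher and 8.99-fold higher. The targets Hes5 and Hey2 were 3.21-fold lower and 7.63-fold lower, and Hey1 was detected on the mutant array alone.

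The growth plate mutant array was the highest of the 6 for 5 of the 18 Notch members, and the control array the lowest for 7, where 11.2% and 21.1% of all genes were. Hes1, for instance, read 2.95 on the interdigital mutant and 2.48 on the interdigital control array, close to the growth plate mutant level and far above the growth plate control level. The median of growth plate minus interdigital tissue was -0.068 for the mutant arrays and -1.55 for the control arrays.

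Genes of limb position held 7 higher and 7 lower of 21 (median -0.34, with either sign among the settings). Meis1 and Meis2, which mark the proximal limb, were 26.1-fold higher and 244-fold higher, and Meis2 was also higher on the other 2 mutant arrays (1.03 and 2.86) than on their controls (-1.35 and -2.19). Hand2, a posterior limb gene, was 12.6-fold lower. Tbx4, a hindlimb gene, read -1.09 on the mutant array and -4.57 on the control array, with the growth plate control array the lowest of the 6. Hoxa9 read 2.39 on the mutant array and 2.43 on the control array, while the more distal Hoxa10 stood at -1.03 on the mutant array and 0.63 on the control array.

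Joint genes were lower for 8 of 20 and higher for 4 (median -0.50). Gdf5, the growth factor gene of the interzone, was at 0.21 on the mutant array and 2.17 on the control array, 3.88-fold lower, and on the interzone arrays it read 2.08 in the mutant and 4.33 in the control. Enpp2, which encodes autotaxin, had levels of 1.98 on the mutant array and 3.40 on the control array, and Ebf2, a transcription factor gene of mesenchyme, -1.60 on the mutant array and -4.81 on the control array. Osteoblast and perichondrium genes held 5 lower and 3 higher of 13 (median -0.29, with either sign among the settings). Col1a2, a chain of type I collagen, was 2.12-fold lower, and Thbs2, a matrix glycoprotein gene of perichondrium, 60.8-fold higher with the growth plate control array the lowest of the 6.

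Tendon and ligament genes were lower for 6 of 14 and higher for 2 (median -0.66). Tnmd, a membrane protein gene of tendon cells, read -7.17 on the mutant array and 1.15 on the control array, and Scx, the tendon regulator, was within 2-fold at 0.085 on the mutant array and 0.47 on the control array. Thbs4, a matrix gene of tendon, had levels of -1.11 on the mutant array and 3.90 on the control array, 32.4-fold lower, and the control array was again the highest of the 6. Mkx, another tendon regulator, was 2.32-fold lower.

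Glycolysis and hypoxia genes were lower for 8 of 25 and higher for 3 (median -0.77), where 32.1% and 22.3% of all genes were, so the share of lower genes was that of all genes. The control array was the highest of the 6 for 15 of the 25, against 35.6% of all genes. Ldha, lactate dehydrogenase, had levels of 3.20 on the mutant array and 4.79 on the control array, 2.996-fold lower, Pgk1 was 2.51-fold lower, Pfkfb3 3.77-fold lower, and Bnip3, a hypoxia target of mitochondria, 3.91-fold lower. Gapdh was within 2-fold at 5.05 on the mutant array and 5.32 on the control array.

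Cell cycle genes were higher for 10 of 30 and lower for 6 (median 0.42). In the deposited table their median was -0.71, against -1.56 for all genes there. Mcm7, a helicase subunit of DNA replication, had levels of 3.004 on the mutant array and -2.61 on the control array, Mcm5 0.98 on the mutant array and -2.11 on the control array, and E2f1, a regulator of entry into DNA synthesis, 1.60 on the mutant array and -3.80 on the control array. Cdk1, the mitotic kinase, was 3.04-fold higher. Ccnd1, cyclin D1, was nearly equal at 3.82 on the mutant array and 3.90 on the control array, and Cdkn1c, an inhibitor of the cycle in maturing chondrocytes, was 3.46-fold lower. Immediate early and stress genes held 3 higher and 7 lower of 19 (median -0.37, with either sign among the settings). Of the early genes, Jun was 15.5-fold higher, Dusp1 5.20-fold lower and Egr1 3.34-fold lower.

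The machinery of every cell gave a view of the arrays themselves. Of 80 cytosolic ribosomal protein genes, 70 were within 2-fold, 9 lower and 1 higher (median -0.69, with either sign among the settings), and the control array was the highest of the 6 for 71 of them, where 35.6% of all genes were. Proteasome subunits held 29 of 47 within 2-fold, 10 higher and 8 lower (median -0.50), and subunits of the respiratory chain 53 of 80 within 2-fold, 13 higher and 14 lower (median -0.16), both with either sign. Yet single subunits lay very far apart, such as Psmd1 of the proteasome at 3.02 on the mutant array and -5.02 on the control array, and Ndufa10 of complex I at 3.15 on the mutant array and -2.12 on the control array. On the other 4 arrays Psmd1 lay between 1.39 and 2.08 and Ndufa10 between 1.17 and 1.81. For these genes the growth plate control array alone was low, while the lowest respiratory chain difference was -5.73. The control array was the lowest of the 6 for 10 of 47 proteasome and 19 of 80 respiratory chain genes, where 21.1% of all genes were. For 23 of the 47 and 36 of the 80 it was the highest, where 35.6% of all genes were. Of 17 housekeeping genes 11 were within 2-fold, 3 higher and 3 lower (median -0.31, with either sign), with Actb, the beta-actin gene, at 4.63 on the mutant array and 5.33 on the control array.

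Markers of other cell types that a captured section can hold were measured on both arrays, and their part in the differences above was not tested. Of 19 epidermal genes, 19 were detected on the mutant and 17 on the control array, and their summed level was 8.25 on the mutant and 7.52 on the control array on the log2 scale. Of the 17 on both, 9 were higher and 0 lower (median 1.44). Krt14, a keratin of the basal layer, had levels of 4.83 on the mutant array and 3.35 on the control array. Its partner Krt5 had 3.08 on the mutant array and -0.25 on the control array. Krt10, the keratin of the layers above, was at 5.47 on the mutant array and 3.88 on the control array, and Krtdap, a gene of differentiating keratinocytes, at 5.52 on the mutant array and 6.12 on the control array. Cdh1, E-cadherin, was detected on the mutant array alone at 1.94 (at least 361-fold higher), as was Trp63, the epidermal regulator. Epidermal RNA was thus present on both growth plate arrays, and 13 of the 17 were higher on the growth plate control array than on both other control arrays.

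Of 20 endothelial genes, 20 were detected on the mutant and 16 on the control array, with a summed level of 4.22 on the mutant and 3.72 on the control array. Of the 16 on both, 8 were higher and 2 lower (median 1.34). Among genes at or above the median level on both arrays the median was -0.83, against -0.55 for all such genes. Each of the 8 higher members lay below the median level on the control array, so this filter left all of them out. Pecam1, an adhesion gene of vessels, had levels of 1.35 on the mutant array and -2.35 on the control array, 12.9-fold higher, and Sox18, a vessel regulator, -0.42 on the mutant array and -5.59 on the control array, 36.0-fold higher. Tek and Tie1, receptors for angiopoietins, were detected on the mutant array alone. The growth plate control array was the lowest of the 6 for 8 of the 16, against 21.1% of all genes.

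Muscle genes were lower for 16 of 23 and higher for 1 (median -1.59), with a summed level of 5.04 on the mutant and 6.47 on the control array, and 23 of 24 members detected on each, Myf5 on neither. Mylpf, a fast muscle light chain gene, had levels of 1.04 on the mutant array and 4.47 on the control array, Myog, a myogenic regulator, -3.01 on the mutant array and 1.82 on the control array, and Acta1, skeletal actin, -0.71 on the mutant array and 2.23 on the control array. The higher member was Mybpc1, at 3.18 on the mutant array and -5.37 on the control array. Erythroid genes were lower for 8 of 12 and higher for 3 (median -1.34), with a summed level of 6.80 on the mutant and 8.47 on the control array; the globin genes Hba-a1 and Hbb-b1, whose near-identical copies their probes may also bind, were 3.24-fold lower and 3.37-fold lower.

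Macrophage and leukocyte genes had the shares of all genes (22.3% higher and 32.1% lower), with 4 higher and 6 lower of 18 (median -0.41, with either sign among the settings), with a summed level of 3.05 on the mutant and 4.20 on the control array. Adgre1, the F4/80 antigen gene, was at -3.65 on the mutant array and -0.016 on the control array, Aif1, another macrophage gene, at 0.74 on the mutant array and -2.07 on the control array, and Mrc1 was detected on the control array alone (at least 342-fold lower), while Tyrobp was 13.5-fold higher. Nerve and Schwann cell genes held 3 higher and 6 lower of 13 (median -0.58), with a summed level of 4.06 on the mutant and 4.67 on the control array. Sox10, the Schwann cell regulator, read 0.73 on the mutant array and -0.78 on the control array. S100b, which chondrocytes also express, was 3.89-fold lower.

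**Figure D5:**
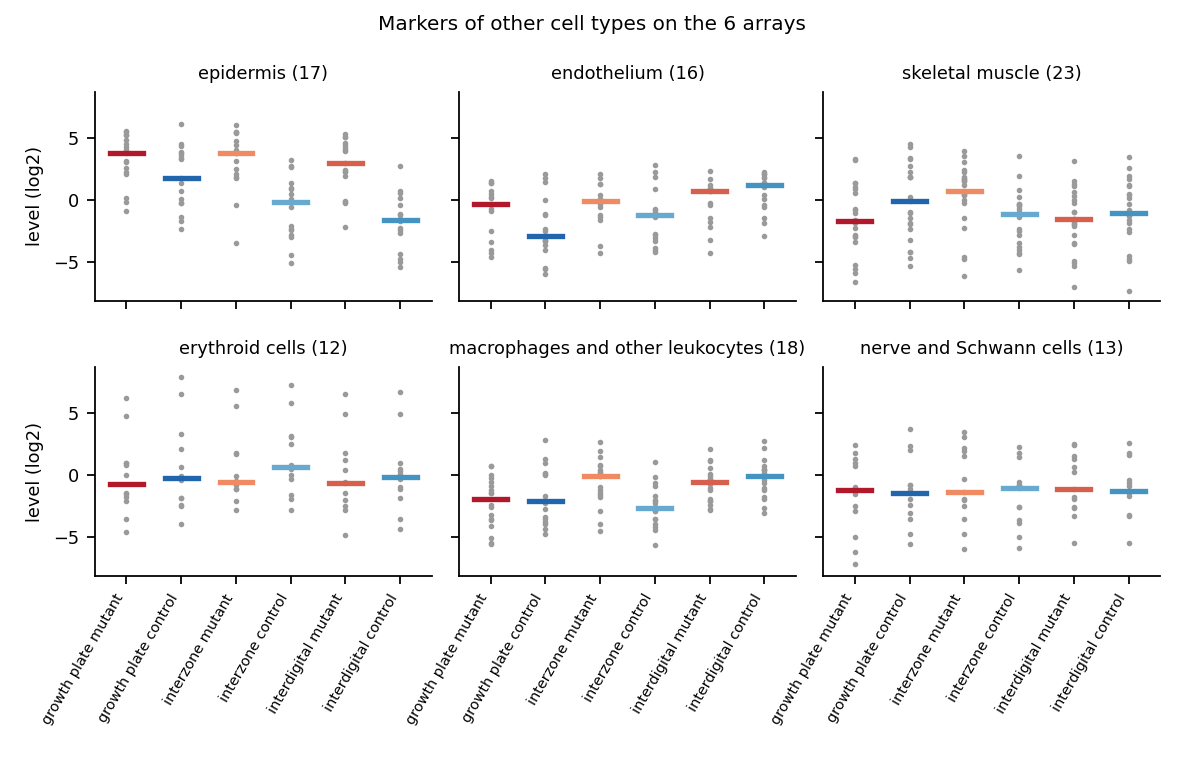
Level (log2) of the markers of 6 other cell types on the 6 arrays, for genes detected on both growth plate arrays (numbers in brackets). Dots are genes and bars medians, red for mutant and blue for control arrays; epidermal medians are high on all mutant arrays and on the growth plate control array, and endothelial medians are lowest on the growth plate control array.

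Among genes bright on both arrays, at or above the median detected level of each, 663 of 6544 (10.1%) were higher by 2-fold or more and 2109 (32.2%) lower. The 15 largest differences in each direction were taken from this set, where the filter itself limits the size of a difference. Of the 15 higher genes, S100a14, a calcium-binding gene of epithelia, led with 4.41 on the mutant array and -0.37 on the control array, 27.3-fold higher. Next were Mknk2 (19.7-fold), a kinase of translation initiation, and Irx2 (18.3-fold), an Iroquois homeobox gene. Lmna, the lamin A gene of the nuclear envelope, had 3.34 on the mutant array and -0.22 on the control array. Capg, an actin-capping gene, Krt5, Gtf2ird1, Idh2, a mitochondrial enzyme gene, Fabp5, a fatty acid carrier of keratinocytes, Myo10, Bace1, Kremen2, Gja1, a gap junction gene, Kctd10 and Arpp19 followed, between 8.39-fold and 10.8-fold. In interzone S100a14 read 5.01 in the mutant and 1.44 in the control, and between the digits 3.81 in the mutant and -0.94 in the control. Krt5 read 1.75 in the interzone mutant and 0.066 in the interzone control, and 2.34 in the interdigital mutant and -2.44 in the interdigital control.

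Of the 15 lower genes, Ccn2, Cnmd, Panx3, Col9a1, Col11a1 and Hapln1 were described above. Kazald1, an IGF-binding protein relative, had levels of -0.14 on the mutant array and 4.70 on the control array, 28.6-fold lower. Peg10, an imprinted gene, was 25.5-fold lower, and Vps39, a tethering subunit of lysosome fusion, 25.4-fold lower. Smpd3, a sphingomyelinase whose loss in mice causes skeletal dysplasia, had 0.088 on the mutant array and 4.39 on the control array, 19.7-fold lower with 3 probes. Fkbp11, a secretory pathway isomerase gene, was 15.6-fold lower. Yipf1, Zfp868, Rad9b and Lpcat3 lay between 15.2-fold and 21.3-fold lower. Of the 15 lower genes, Cnmd, Col9a1, Col11a1 and Hapln1 belong to the cartilage collagen and matrix lists, and of the 15 higher genes Krt5 belongs to the epidermal list.

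Genes with 3 or more probes that were all past 2-fold in 1 direction gave the strictest view within an array. Of 1468 genes with 3 or more probes on both arrays, 62 (4.22%) met this as higher and 49 (3.34%) as lower. The higher genes with the largest smallest difference were Tfe3, a lysosomal regulator, with probe differences between 4.06 and 7.35, then Ap2a2, Ireb2, Rpf1, Nek6, Atp2c1, Rhbdl3, Slk, Myo5b and Irx2. Tfe3 had levels of 2.09 on the mutant array and -5.26 on the control array, with the interdigital control at 0.40. The control growth plate levels of 9 of these 10 were between -6.12 and -1.85.

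Among the lower genes were Gramd1b, with probe differences between -6.68 and -4.45, Frs2, an FGF receptor adaptor, Mia, Sox9, Smpd3, Gbf1, Col2a1, Col27a1 and Cspg4, the NG2 proteoglycan gene of chondrocyte and pericyte surfaces. Frs2 had levels of -0.997 on the mutant array and 3.01 on the control array, and Cspg4 1.86 on the mutant array and 5.42 on the control array. The 3 probes of Col2a1 differed by -8.56 to -2.53, and those of Sox9 by -3.86 to -2.88. Of these genes Mia, Sox9, Col2a1 and Col27a1 belong to the cartilage lists.

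Genes detected on 1 of the 2 arrays have a bound in place of a fold. The brightest on the mutant array were Egfl6, Cap1, Eogt, Fst and Nab1, between 2.55 and 2.17. Egfl6, a secreted gene of developing skin and cartilage, was at least 549-fold higher, and Cap1, an actin regulator of all cells, at least 499.5-fold higher. Cap1 read 2.07 on the interdigital control array. The brightest on the control array were Vdr, Mcoln2, Mttp, Lrp11 and 2610203C22Rik, between 3.24 and 2.07. Vdr, the vitamin D receptor, was at least 1652-fold lower, and read -3.32 on the interdigital control array. Mcoln2 read -6.32, Mttp -4.76 and Lrp11 -3.17 on the interdigital control array, and for Vdr, Mcoln2 and Mttp the growth plate control array was the only one of the 6 above 0.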

How the data were processed

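Expression was measured on 1-colour Agilent whole-genome arrays, 1 per tissue and genotype. Per the file headers, the authors' scanner files hold a background-subtracted processed intensity for each spot, made with Agilent Feature Extraction 9.5.1.1, and RNA was amplified with the SuperAmp procedure before labelling, per the labels' protocols. The authors' deposited value table holds a ratio of each processed signal to the array's median signal, as found by setting it against the scanner files. No aligner or count applies.

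From the processed signals, log2 was taken after control spots and outlier spots were left out, and the 75th percentile of all non-control spots was subtracted per array. Repeat spots of a probe were averaged, and a gene took its probe with the highest mean level over the 6 arrays. Of 41174 probes, 22704 were named by accession, 6849 by symbol and 3167 by an older symbol through a RefSeq table (GRCm38.p6, names only), and 8454 were not named. A gene entered a comparison where its probe was well above background on both growth plate arrays, and a fold of 2 or more was called. Where no probe of a gene was detected on 1 of the arrays, a bound was computed: the bright level over the higher of the dim array's lowest detected level and the probe's own level. With 1 array per group no test, error or p-value was computed, and the number of arrays limits the precision. The calling steps were checked on simulated differences.

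Genes are named from the 38 lists and the sex-linked genes, as the 15 largest differences per direction among genes at or above the median level on both arrays with all probes of 1 sign, the 10 per direction with the largest smallest difference over 3 or more probes past 2-fold, and the 5 brightest per direction detected on 1 array; a few genes that these rules name are not reported here. List members were chosen with earlier results of these data known, as were the comparison and the lists themselves. Background correction by normexp (limma 3.58.1), other scalings, probe rules, filters and a 4-fold threshold were tried. Tools were Python 3.11.15, pandas 2.3.3, numpy 2.4.6 and R 4.3.3.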

Additional observations from a re-analysis of the deposited data

Results flagged for a closer look

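Skeletal muscle genes were lower in the mutant in growth plate and higher in the mutant in the neighbouring interzone. Their median mutant minus control difference was -1.59 in growth plate and 1.66 in interzone on the log2 scale, and whether the tissues differ was not tested, with 1 array per group. In growth plate 16 of 23 members were at least 2-fold lower and 1 higher. The summed muscle level was 5.04 on the growth plate mutant and 6.47 on the growth plate control array, and 6.20 on the interzone mutant and 4.64 on the interzone control array. Mylpf read 1.04 on the growth plate mutant and 4.47 on the growth plate control array, and 3.56 on the interzone mutant and -0.30 on the interzone control array. How much muscle lay in each captured area was not measured apart from these genes.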

How the results depend on the processing

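The counts of genes past 2-fold moved by more than 1.5 times under 4 of the 10 alternatives. In the deposited table the mutant was higher for 2108 genes and lower for 10447; with the median of all genes set to 0, 3368 were lower; with the bright genes alone, those at or above the median level of both arrays, 663 were higher and 2109 lower; and at 4-fold 2230 were higher and 1980 lower. The median of the cartilage collagen and matrix genes was -3.42 and kept its sign under each alternative, with -4.55 in the deposited table as the furthest value. Of 38 list medians, 20 kept their sign under each alternative and 18 did not. Sign was taken against 0, while the median of all genes itself lay between -1.56 and 0 among the settings. A changed sign need not be a changed place against all genes. Among the medians past 2-fold, that of Notch genes turned to -0.084 in the deposited table and -0.036 among the bright genes. That of endothelial genes turned to -0.83 among the bright genes, where the median of all genes was -0.55. The bright filter left out every higher member of the Notch and endothelial lists, since each was dim on the control array. Of the 214 named genes with a difference, Runx3 and Col4a2 turned, to -0.071 and -0.061 in the deposited table, where the fold of the other 212 moved by over 1.5 times. The fold moved by that much for 109 of them under quantile normalization, 44 under normexp, 35 with the mean over probes and 4 with the probe chosen on the other arrays, so single folds depend on the processing more than their printed digits show. The deposited table shifts all genes together, its median of all genes being -1.56, and the bright filter keeps fewer genes; the cause of the other shifts was not tested. The growth plate control array was the dimmest, with 72.3% of its spots above background. No paired analysis was possible because each group has 1 array and no test was made.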

Other observations

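Genes of the tissue between the digits, where cells die to free the digits, were also read in growth plate. The mutant growth plate was higher for 7 of 16 such genes and lower for 2 (median 0.27). In the deposited table their median was -0.86, against -1.56 for all genes there. Rarb and Rarg, retinoic acid receptor genes, lay on opposite sides, with Rarb at -1.32 on the mutant array and -5.07 on the control array and Rarg at 0.90 on the mutant array and 3.10 on the control array. Bmp7, a growth factor gene of the interdigit, was 2.33-fold higher, and the growth plate mutant array was the highest of the 6. Msx1, a homeobox gene of the same tissue, was 2.17-fold lower and lowest of the 6 on the mutant array.

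Of 19 apoptosis genes 4 were higher and 6 lower (median -0.50, with either sign among the settings), shares close to the 22.3% and 32.1% of all genes, so the genes below are single values. Bid and Pmaip1, which promote mitochondrial death, were 68.1-fold higher and 46.7-fold higher, at control levels of -6.18 and -6.32. Apaf1, the core of the apoptosome, read -0.042 on the mutant array and 2.76 on the control array, and the initiator caspase gene Casp9 was detected on the control array alone (at least 58.0-fold lower). Bid was also dim on the interdigital control array, at -6.42, and Pmaip1 on the interzone control array, at -5.74.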
